A study of Mus musculus with 16 samples.

Results

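The microRNAs described here are star strands, which are the strands of a microRNA precursor that the array design names with a star, measured in mouse heart. A probe was included where every mouse microRNA in its name ends in a star and it is not of miR-21, miR-24, miR-30, miR-133, miR-143, miR-214, miR-297, miR-466, miR-467 or miR-669. This kept all but 27 of the 326 mouse star probes on the array, which holds 1023 mouse probes in all. A guide probe of the same name without the star was found for 254 of them, and for a further 42 once the copy number of the precursor gene was also left out of the name. Precursor copies that differ only in that number then share a guide probe. The other 3 stars, miR-1982*, miR-1a-1* and miR-1a-2*, had no guide probe among those used here.

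A microRNA precursor is a hairpin that is cut to a short duplex, one strand of which is usually kept in an Argonaute protein as the guide while the other is usually degraded. The star marked the strand found less often when the names were given, and which strand is kept can differ between tissues. Bases 2 to 8 of a mature strand are the seed, which pairs with target messenger RNAs, so the strands of one precursor have different seeds and different targets.

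Total RNA came from individual hearts of C57BL/6 mice in a model of post-traumatic stress. Mice of the exposed groups spent 6 hours daily in a mesh box placed in the cage of an aggressor, over 1 day (T1R1), 2 days (T2R1) or 3 days (T3R1), and then had 1 day of rest. Control mice were kept in such a box in a large cage without an aggressor. Each group held 4 hearts, 16 in all. The days used here are those of the group codes and the series' design, since the labelled protocol speaks of more days, and the labels do not spell out the schedule behind the control code. Each of 8 arrays carried 2 hearts of the same group, the first in the dye Hy3 and the second in Hy5. Slides of control and T3R1 had neighbouring slide numbers, as did those of T1R1 and T2R1, with a gap between. These blocks of slide numbers are called runs here, although no label names a run. Date and time digits in the labels place the arrays of all groups on the same day, in mixed order. Mean landing light intensity was 24780 ± 2130 on the arrays of T1R1 and T2R1 and 15720 ± 263 on the arrays of control and T3R1 (SD, n = 4 arrays each), which differed by an exact two-sided permutation test over arrays (p = 0.0286, the smallest these arrays allow). Run and exposure therefore cannot be told apart where T1R1 or T2R1 is set against control. The heart label was checked with marker microRNAs. Of the muscle microRNAs, miR-133a, miR-133b and miR-499 were above background in all 16 samples, miR-208a-3p in all 15 in which it had a value, miR-206 in 13 and miR-208b in 7, while miR-1 itself was not analysed here. Of neuron and epithelial microRNAs, miR-124, miR-9, miR-200b, miR-200c, miR-141 and miR-205 were above it in 0 samples and miR-128 and miR-200a in 1 each, as was miR-122 of liver. Markers of blood, leukocytes, endothelium and smooth muscle were present too: miR-144, miR-142-3p, miR-223, both miR-126 strands and miR-145 were above background in all 16 samples, miR-451 in all 12 and miR-143 in all 9 in which they had a value, miR-150 and miR-486 in 15 and miR-142-5p in 14, while miR-155 was above it in 0. Their part in the results below was not tested.

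Mature sequences are from RefSeq (GRCm38.p6), which gave one for 207 of the stars. They are printed 5′ to 3′ with the seed in capitals for the stars whose changes or strand pattern are described most closely. Their guides stand beside them, except that miR-7a, the guide of miR-7a-2*, was not looked up. The array gives miR-138 and let-7a as one guide each for several precursor copies.
miR-677*: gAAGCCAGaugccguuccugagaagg
miR-677: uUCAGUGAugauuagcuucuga
miR-503*: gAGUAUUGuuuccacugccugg
miR-503: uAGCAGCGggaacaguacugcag
miR-493*: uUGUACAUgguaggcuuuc
miR-493: uGAAGGUCcuacugugugccagg
miR-138-1*: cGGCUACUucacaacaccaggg
miR-138-2*: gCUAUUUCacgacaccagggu
miR-138: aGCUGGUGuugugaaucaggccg
miR-7a-2*: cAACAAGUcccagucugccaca
let-7a-1*/let-7c-2*: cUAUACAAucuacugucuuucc
let-7a-2*: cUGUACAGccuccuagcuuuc
let-7a: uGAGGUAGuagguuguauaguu

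The miR-677* strand lies at chr10:128085335-128085360 and its guide at chr10:128085291-128085312, both on the plus strand. The strand miR-503* lies at chrX:53053987-53054008 on the minus strand, and miR-493* at chr12:109580243-109580261 on the plus strand. The stars of the miR-138 copies come from different chromosomes, miR-138-1* at chr9:122682936-122682957 and miR-138-2* at chr8:94324359-94324379, and have different seeds although they share a guide. The 29 stars that were above background in at least 4 samples and have a sequence carried 29 different seeds.

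Most star strands and most guides were at background in these hearts, and the few stars that were not included many whose guide was. A probe counted as above background in a given sample when it exceeded the 95th percentile of 143 probes for human viruses. A probe above background need not measure its strand, since by definition some virus probes exceed the limit in every sample. Of the stars, 250 (83.6%) were above it in no sample, 15 in 1 to 3 samples, 34 (11.4%) in at least 4 samples and 15 (5.02%) in all 16. Of the 274 distinct guide probes, 73 (26.6%) were above it in at least 4 samples and 47 (17.2%) in all 16, and of the 697 mouse probes without a star, 171 (24.5%) were above it in at least 4. Over the 296 pairs, both strands were above background in at least 4 samples in 5 pairs, the star alone in 27, the guide alone in 76 and neither in 188. A probe that binds poorly and a strand that is scarce give the same low intensity, so this count compares probes and their backgrounds, not strand abundance.

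Of the 32 stars above background in at least 4 samples that had a guide, 23 had a guide above background in 0 samples. Most guides were low whatever the star, since 73 (26.6%) of all 274 guide probes were above background in at least 4 samples. At that limit of 4 samples 27 of the 32 had a guide that fell short. Among pairs whose star fell short, 188 had such a guide and 76 did not. The share of all guides above background in 0 samples is not given here. The 32 were chosen by the star alone, which favours the star in any count against the guide. Over all 296 pairs the guide alone was above background in at least 4 samples in 76 and the star alone in 27. In 28 of the 32, a larger share of the measured samples was above background for the star than for the guide. The exceptions were miR-499*, miR-3084* and miR-185*, whose guides were above background in all 16 samples, and miR-22*, whose guide was above it in all 14 samples in which it had a value. Stars above background in all 16 samples whose guide was so in 0 were miR-138-1*, miR-138-2*, miR-196a-2*, miR-300*, miR-433*, miR-491*, miR-493*, miR-677* and miR-872*. The guides of miR-140* and miR-503* were above background in 2 samples each and that of miR-32* in 1. The strand miR-140*, listed by the array also as the human miR-140-3p, is known as the more abundant strand of its precursor in many tissues. Nearest to the limit of 4 samples, miR-758* and miR-299* were above background in 4 samples and miR-320* and miR-551b* in 3.

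**Figure D1:**
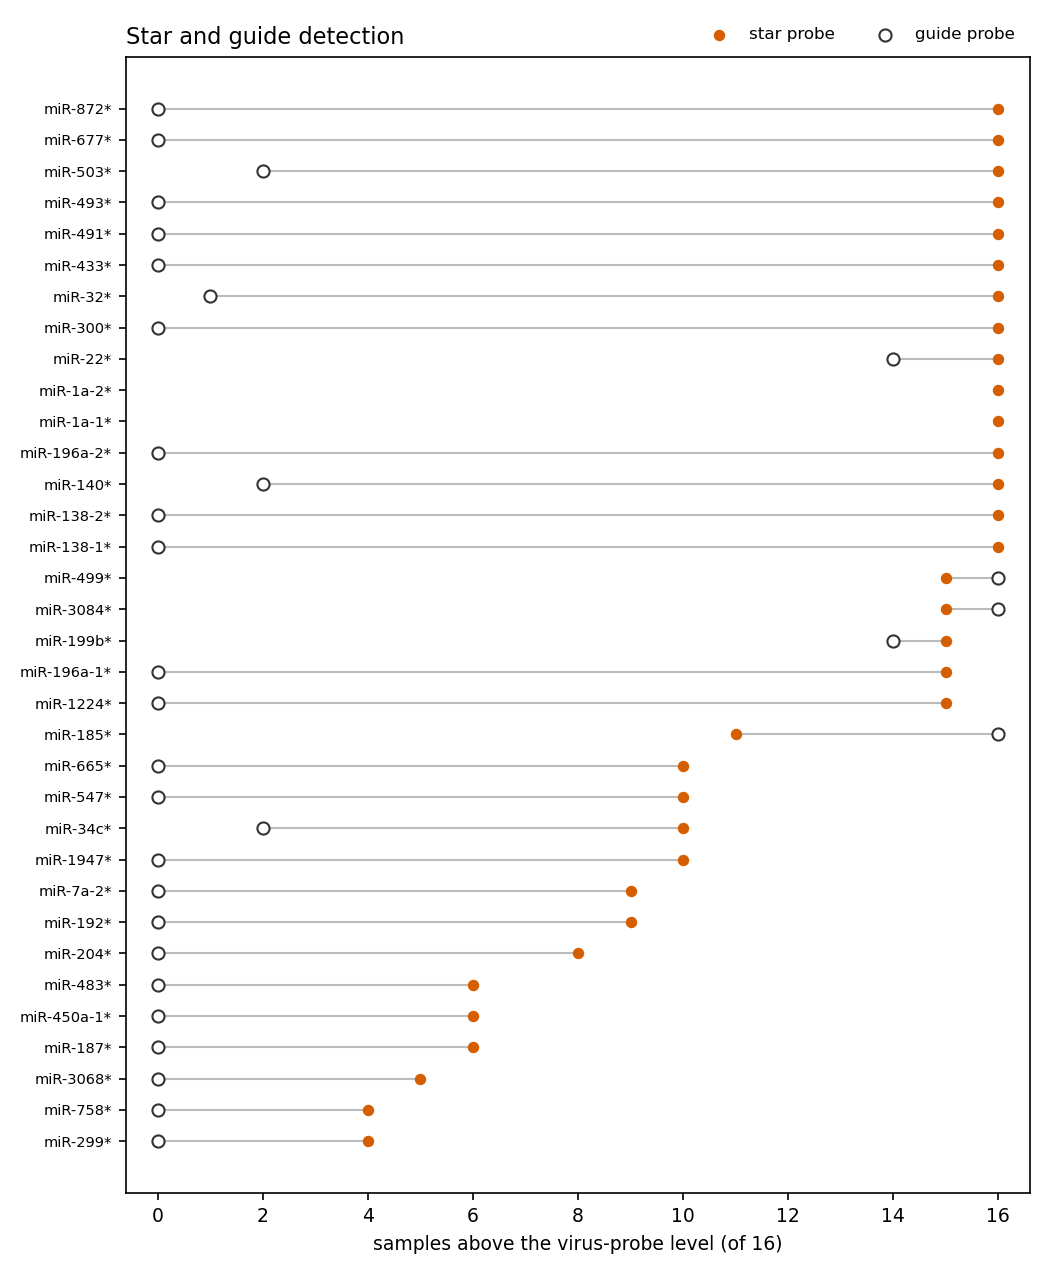
Number of samples, of 16, in which each of the 34 stars above background in at least 4 samples (filled) and its guide (open) exceeded the virus-probe level; miR-1a-1* and miR-1a-2* have no guide probe. For 23 of these stars the guide stands at 0. The stars were chosen by the star alone, and most guides of all stars were above background in fewer than 4 samples.

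Stars of some muscle precursors were above background and others were not. miR-1a-1* and miR-1a-2*, the other strands of the muscle microRNA miR-1a, were above background in all 16 samples, and miR-499*, from a myosin heavy chain gene, in 15. miR-206*, of a skeletal muscle microRNA, and miR-208b*, from another myosin heavy chain gene, were above it in 0, although their guides were above it in 13 and 7 samples. On a list of 23 stars of heart-abundant precursors, 5 were above background in at least 4 samples, against 18 of their 19 distinct guides. None of the 11 stars of let-7 and miR-98 was above it in at least 4 samples, against all 9 of their guides. None of the 15 stars of the miR-17 cluster and its paralogues was, against 7 of 13 guides, and none of the 11 leukocyte stars, against 4 of 9 guides. In the imprinted Dlk1-Dio3 region of chromosome 12, where many microRNA genes are transcribed together, the proportion ran the other way, with 6 of 32 stars (miR-299*, miR-300*, miR-433*, miR-493*, miR-665* and miR-758*) against 4 of 32 guides. No test was made of these proportions. Of 6 neuron stars, miR-138-1* and miR-138-2* were above background in all 16 samples, and of 9 epithelial stars none was in at least 4 samples.

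On every array more stars were above background in one dye than in the other, and over both dyes the groups overlapped. The number of stars above background was 25, 27, 23 and 29 in control hearts, 25, 33, 23 and 40 in T1R1 hearts, 25, 34, 28 and 30 in T2R1 hearts and 20, 35, 20 and 29 in T3R1 hearts. The even-numbered replicates carried Hy5, and the Hy5 sample had more stars above background than its Hy3 partner on all 8 arrays. The mean was 30.2 ± 7.8 in T1R1 hearts and 26 ± 2.58 in control hearts (SD, n = 4 each), 29.2 ± 3.77 in T2R1 hearts, and 26 ± 7.35 in T3R1 hearts. By exact two-sided permutation tests over samples, p was 0.457 for T1R1, 0.229 for T2R1 and 1 for T3R1 against control, with 0.0286 the smallest p possible. These tests leave the dye out. Among the Hy5 samples the counts were 33 and 40 in T1R1 hearts, 34 and 30 in T2R1 hearts and 35 and 29 in T3R1 hearts, against 27 and 29 in control hearts, so that T1R1 and T2R1 did not overlap with control. Among the Hy3 samples they were 25 and 23, 25 and 28, and 20 and 20, against 25 and 23 in control hearts, so that T3R1 lay below control and T1R1 had the same counts as control. For the star counts with labels exchanged only within a dye, a test chosen after seeing the data, p was 0.278 for T1R1, 0.111 for T2R1 and 1 for T3R1 (exact two-sided permutation tests), where 0.0556 is the smallest p possible and the threshold cannot be reached. With the 99th percentile of the virus probes as the limit, the differences of T1R1 and T2R1 from control turned negative, at -1.25 and -1.5 stars.

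**Figure D2:**
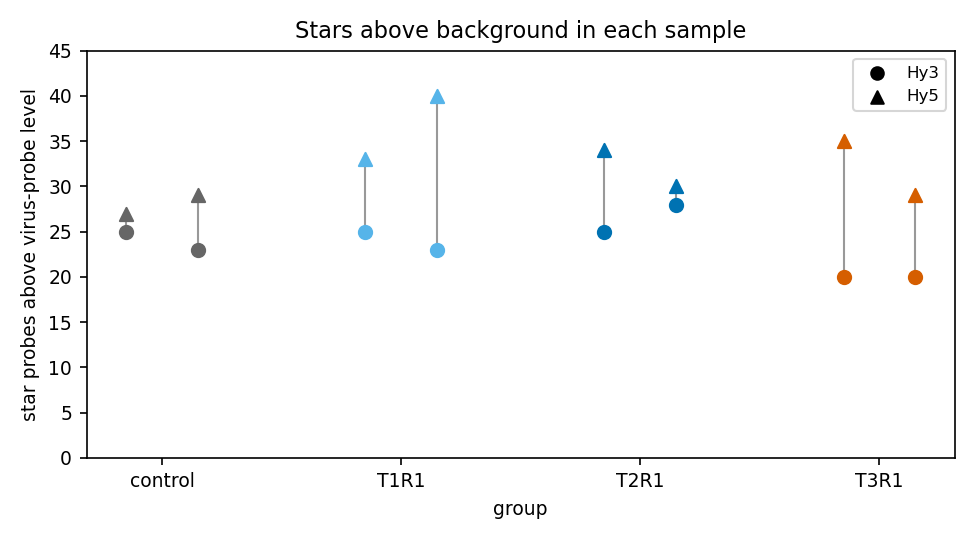
Star probes above the virus-probe level in each sample (vertical axis, number of probes) by group, with the Hy3 sample (circle) and Hy5 sample (triangle) of an array joined by a line. The triangle is above the circle on all 8 arrays. The groups overlap over both dyes, but among the triangles T1R1 and T2R1 lie above control, and among the circles T3R1 lies below it.

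After 2 days of exposure 1 star strand was called, miR-677*, which was higher in T2R1 hearts than in control hearts. Its log2 normalized intensity was 7.39, 7.54, 7.76 and 7.95 in T2R1 hearts, against 7.05, 7.14, 6.95 and 7.09 in control hearts. All 4 T2R1 hearts lay above all 4 control hearts. The difference was 0.60 ± 0.12 on the log2 scale (SE, n = 4 hearts on 2 arrays per group), a fold of 1.52, with a limma adjusted p of 0.0232. In RNA of whole hearts more cells of a type and more RNA per cell cannot be told apart. Over the alternatives the adjusted p ranged between 0.00193 and 0.433. The call was lost when the samples of an array were averaged (adjusted p = 0.217) and when the correlation within arrays of detected probes, 0.627, was used in place of that of all mouse probes, 0.249 (adjusted p = 0.299). It was lost as well with normexp offset 0 (adjusted p = 0.06), among probes above background in at least 4 samples (0.0765), with the samples of the 2 groups alone (0.0629) and with no step between arrays (0.433). It was also lost without control replicate 2 (adjusted p = 0.0636), control replicate 3 (0.068), T2R1 replicate 3 (0.0891) or T2R1 replicate 4 (0.0578), each of which left 0 called stars, while 4 stars were called without control replicate 1 and 3 without T2R1 replicate 1. The share of all mouse probes called in these refits is not given, so their counts do not single out the stars. In T1R1 hearts the strand had 7.61, 7.18, 7.38 and 7.49, and in T3R1 hearts 7.16, 7.24, 7.20 and 7.35. In both groups all 4 hearts again lay above all 4 control hearts, in T3R1 narrowly, at 7.16 against 7.14. The differences from control of 0.36 ± 0.12 in T1R1 and 0.18 ± 0.12 in T3R1 were not called (limma adjusted p = 0.309 and 0.895).

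The guide miR-677 was above background in 0 samples and had 6.58, 6.38, 6.61 and 6.42 in T2R1 hearts, against 6.42, 6.37, 6.37 and 6.40 in control hearts. Its own difference was 0.11 ± 0.05 (limma adjusted p = 0.625). At background the guide's change was not measured, so the star-minus-guide difference of 0.50 ± 0.13 on the log2 scale (limma adjusted p = 0.092 over all pairs) does not show that the guide changed less.

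Across T2R1 against control, 1 star was called (0.881% of all mouse probes were called), 24 stars had an unadjusted p under 0.05 (8.02% of all mouse probes did), and the median star difference was 0.01, beside 0.00 over all mouse probes. The next star by p was miR-7a-2*, with 6.78, 7.16, 7.16 and 7.56 in T2R1 hearts, against 6.70, 6.75, 6.57 and 6.87 in control hearts. The groups overlapped and the difference of 0.44 ± 0.11 was not called (limma adjusted p = 0.0797). miR-301b* differed by 0.27 ± 0.07 (adjusted p = 0.0962, limma), miR-665* by 0.27 ± 0.08 (0.164) and miR-18b* by 0.17 ± 0.05 (0.2), all higher in T2R1 hearts and none called. miR-301b* was above background in no sample.

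After 1 day of exposure no star was called by limma, where 0.686% of all mouse probes were. At an unadjusted p under 0.05 there were 25 stars, where 8.81% of all mouse probes passed. Without control replicate 1, 2 stars were called, and without control replicate 3, 1 was, again without the share of all mouse probes. The lowest p belonged to miR-503*, from an X-linked cluster that also holds miR-322 and miR-351. Its values were 7.70, 7.55, 7.69 and 7.57 in T1R1 hearts, against 7.23, 7.16, 7.55 and 7.23 in control hearts. Control replicate 3 reached the lower T1R1 values. The difference was 0.33 ± 0.08 (limma adjusted p = 0.0679). The guide miR-503 differed by 0.20 ± 0.15 (adjusted p = 0.799) and star minus guide by 0.14 ± 0.21 (adjusted p = 0.896), with the guide above background in 2 samples. Of the cluster's other stars, miR-351* differed by -0.08, miR-322* by -0.03 and miR-450a-2* by 0.01, each above background in no sample, and miR-450a-1* by 0.03.

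The other stars of lowest p in T1R1 were miR-138-2* (-0.15 ± 0.04, limma adjusted p = 0.138), miR-3067* (-0.31 ± 0.09, 0.192), miR-3071* (-0.26 ± 0.08, 0.193), miR-3084* (0.19 ± 0.06, 0.194) and miR-677*. The direction of miR-138-2* turned under median scaling of the channels, to 0.49 in T1R1 and 0.44 in T2R1, with adjusted p of 0.00082 and 0.00204. miR-3067* and miR-3071* were above background in no sample. Among the muscle stars, miR-1a-1* differed by 0.15 ± 0.06, miR-1a-2* by 0.21 ± 0.09 and miR-499* by 0.19 ± 0.08, each with a limma adjusted p of 0.513. On the list of heart-abundant precursors 18 of 23 stars had a positive difference in T1R1, with a median of 0.05, and 17 in T2R1, with a median of 0.05, but 10 in T3R1, with a median of -0.02. Of all the stars 157, 163 and 162 were positive in these comparisons. On the list 16 of the 23 stars were above background in no sample, so their changes were not measured. In T1R1 and T2R1 run and exposure cannot be told apart. Under the other scalings 19 to 20 of the 23 were positive in T1R1, 16 to 19 in T2R1 and 7 to 13 in T3R1, where median scaling turned the median to 0.02, except with no step between arrays, where 3, 1 and 0 were, with medians of -0.55, -0.60 and -0.61, beside -0.59, -0.62 and -0.62 for all mouse probes.

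After 3 days of exposure no star was called, nor any of 1022 mouse probes (0%), and 14 stars had an unadjusted p under 0.05 (6.56% of all mouse probes). This comparison lies within one slide run. The lowest p was that of miR-493*, from the Dlk1-Dio3 region. Its values were 7.52, 7.56, 7.72 and 7.96 in T3R1 hearts, against 7.21, 7.39, 7.04 and 7.11 in control hearts. The groups did not overlap. The difference was 0.50 ± 0.11 (limma adjusted p = 0.205), and the guide miR-493, above background in 0 samples, differed by -0.05 ± 0.04 (adjusted p = 0.898). Star minus guide differed by 0.55 ± 0.12 (limma adjusted p = 0.0788), which does not show that the guide changed less, since its change was not measured at background. In T2R1 hearts miR-493* had 7.35, 7.64, 7.22 and 7.37, a difference of 0.21 ± 0.11 from control that was not called (adjusted p = 0.657).

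miR-140* had 7.64, 7.89, 7.36 and 7.40 in T3R1 hearts, against 7.71, 7.88, 7.89 and 7.89 in control hearts, and the groups overlapped (-0.27 ± 0.10, limma adjusted p = 0.557). The remaining stars of lowest p in T3R1 were miR-138-2* (0.13 ± 0.04, adjusted p = 0.552, limma), and miR-152*, miR-200b* and miR-1968* (each adjusted p = 0.557), which were above background in no sample. On the Dlk1-Dio3 list 18 of 32 stars had a positive difference in T1R1, 17 in T2R1 and 23 in T3R1, with medians of 0.01, 0.00 and 0.01. Of these 32 stars 25 were above background in no sample, so their changes were not measured. Under the other scalings 17 to 20 of the 32 were positive in T1R1, 16 to 19 in T2R1 and 16 to 22 in T3R1, except with no step between arrays, where 1, 0 and 1 were.

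T2R1 against T1R1, also within a run, gave no call among stars or among 1022 mouse probes (0%), and 8 stars had an unadjusted p under 0.05 (3.42% of all mouse probes). The lowest p was that of miR-3084*, which was lower in T2R1 hearts by a difference of -0.20 ± 0.06 (limma adjusted p = 0.996). miR-677* was 0.25 ± 0.12 higher in T2R1 hearts and not called.

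**Figure D3:**
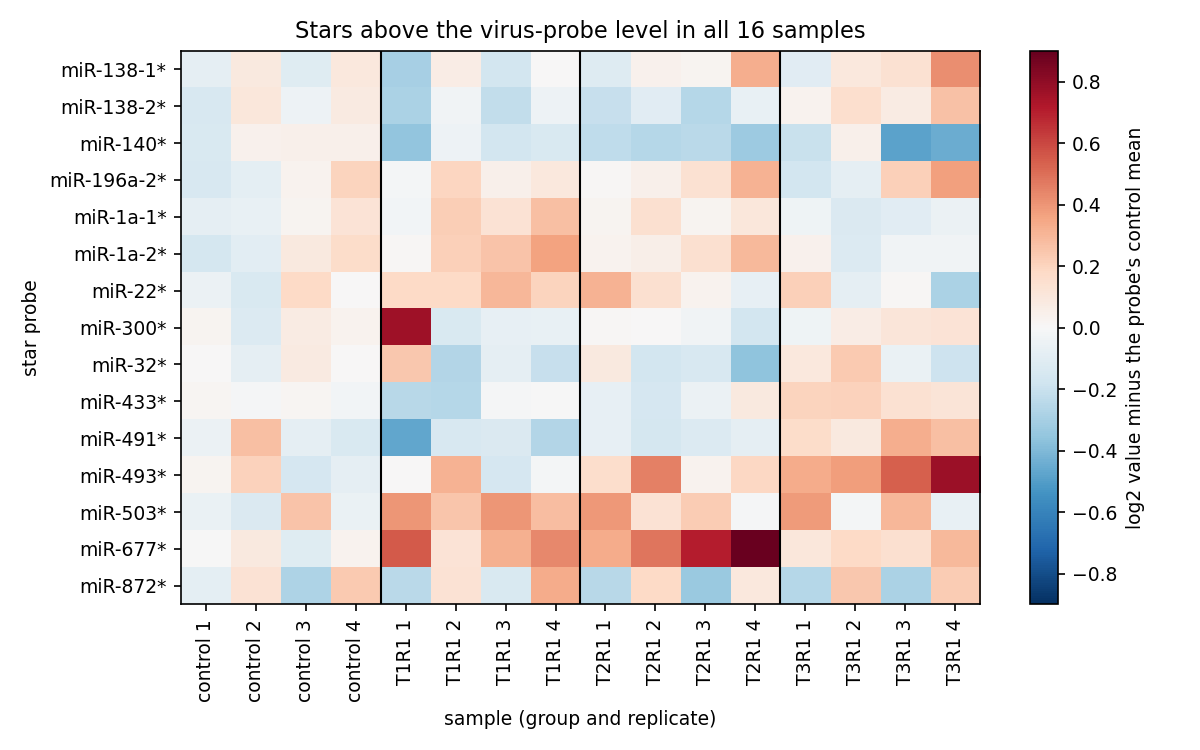
Log2 normalized intensity of the 15 stars above background in all 16 samples, as each sample's difference from the probe's own control mean (colour), by sample. miR-677* is red across T1R1 and T2R1 and lies above its control mean in T3R1 too, by less. miR-493* is red across T3R1, and T1R1 replicate 1 stands apart for miR-300*.

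Where a star was compared with its guide within each sample, the called pairs were ones with a guide that changed or with both strands at background. In T2R1 against control 2 member pairs were called (1.55% of all 322 pairs were), let-7a-1*/let-7c-2* and let-7a-2*, both set against let-7a, which is a family member abundant in differentiated tissue. The guide let-7a had 8.37, 8.31, 8.42 and 8.42 in T2R1 hearts, against 7.58, 7.54, 7.66 and 7.66 in control hearts. The groups lay far apart, and the guide rose by 0.77 ± 0.07 (limma adjusted p = 2.8e-05), a comparison in which run and exposure cannot be told apart. The star let-7a-1*/let-7c-2* had 6.33, 6.29, 6.42 and 6.41 in T2R1 hearts, against 6.26, 6.30, 6.30 and 6.33 in control hearts, and let-7a-2* had 6.45, 6.63, 6.52 and 6.54 against 6.51, 6.54, 6.30 and 6.37. Neither star was above background in any sample. Star minus guide differed by -0.70 ± 0.09 for let-7a-1*/let-7c-2* (limma adjusted p = 0.000192) and by -0.66 ± 0.12 for let-7a-2* (adjusted p = 0.00617). With both stars at background these values carry the guide's rise and do not measure a change of the stars. Both pairs use the same guide values and are not independent. The probe of let-7a-1*/let-7c-2* also covers a star of let-7c, whose own guide probe was not used for this pair. The calls of let-7a-1*/let-7c-2* and let-7a-2* were lost with normexp offset 0 (adjusted p = 0.266 and 0.633, limma), with processed signals (0.176 and 0.327) and with the deposited values (0.21 and 0.428), and that of let-7a-2* with the higher correlation within arrays (0.0962). Leaving out T1R1 replicate 1 or T2R1 replicate 1 gave 3 called pairs. This count and those of the refits below stand without the share of all pairs called.

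In T1R1 against control 3 member pairs were called (1.56% of all 321 pairs were). For let-7a-1*/let-7c-2* the difference in star minus guide was -0.41 ± 0.09 (limma adjusted p = 0.0298), with the guide higher by 0.52 ± 0.07 (adjusted p = 0.00166). For miR-3067* it was -0.36 ± 0.08 (adjusted p = 0.0298, limma) and for miR-379* -0.27 ± 0.06 (0.0464). Star and guide of miR-3067* and miR-379* were above background in 0 samples, so neither strand's change was measured, and the let-7a-1*/let-7c-2* star was at background as in T2R1. Leaving out T1R1 replicate 2, 3 or 4 gave 0 called pairs, leaving out control replicate 3 or T2R1 replicate 3 gave 1, and leaving out control replicate 1 or 4 gave 6 or 5. In T3R1 against control, and in T2R1 against T1R1, no pair was called (0% in each); the lowest adjusted p was 0.0788, for miR-493*, in the first and 0.634 in the second. Without T3R1 replicate 2, 1 pair was called in T3R1 against control.

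**Figure D4:**
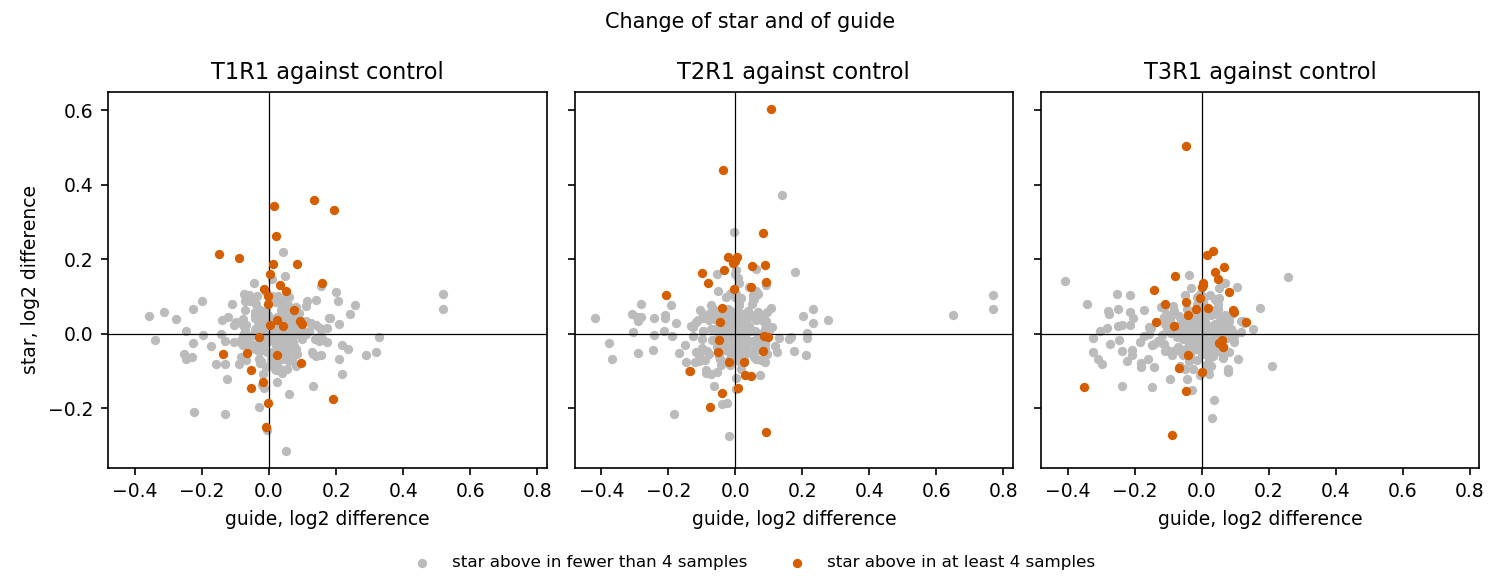
Change of each star (vertical) against change of its guide (horizontal), both as log2 differences from control, for T1R1, T2R1 and T3R1; colour separates stars above background in at least 4 samples. The points furthest right in T1R1 and T2R1 are the let-7a pairs, and the highest star is miR-677* in T2R1 and miR-493* in T3R1.

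**Figure D5:**
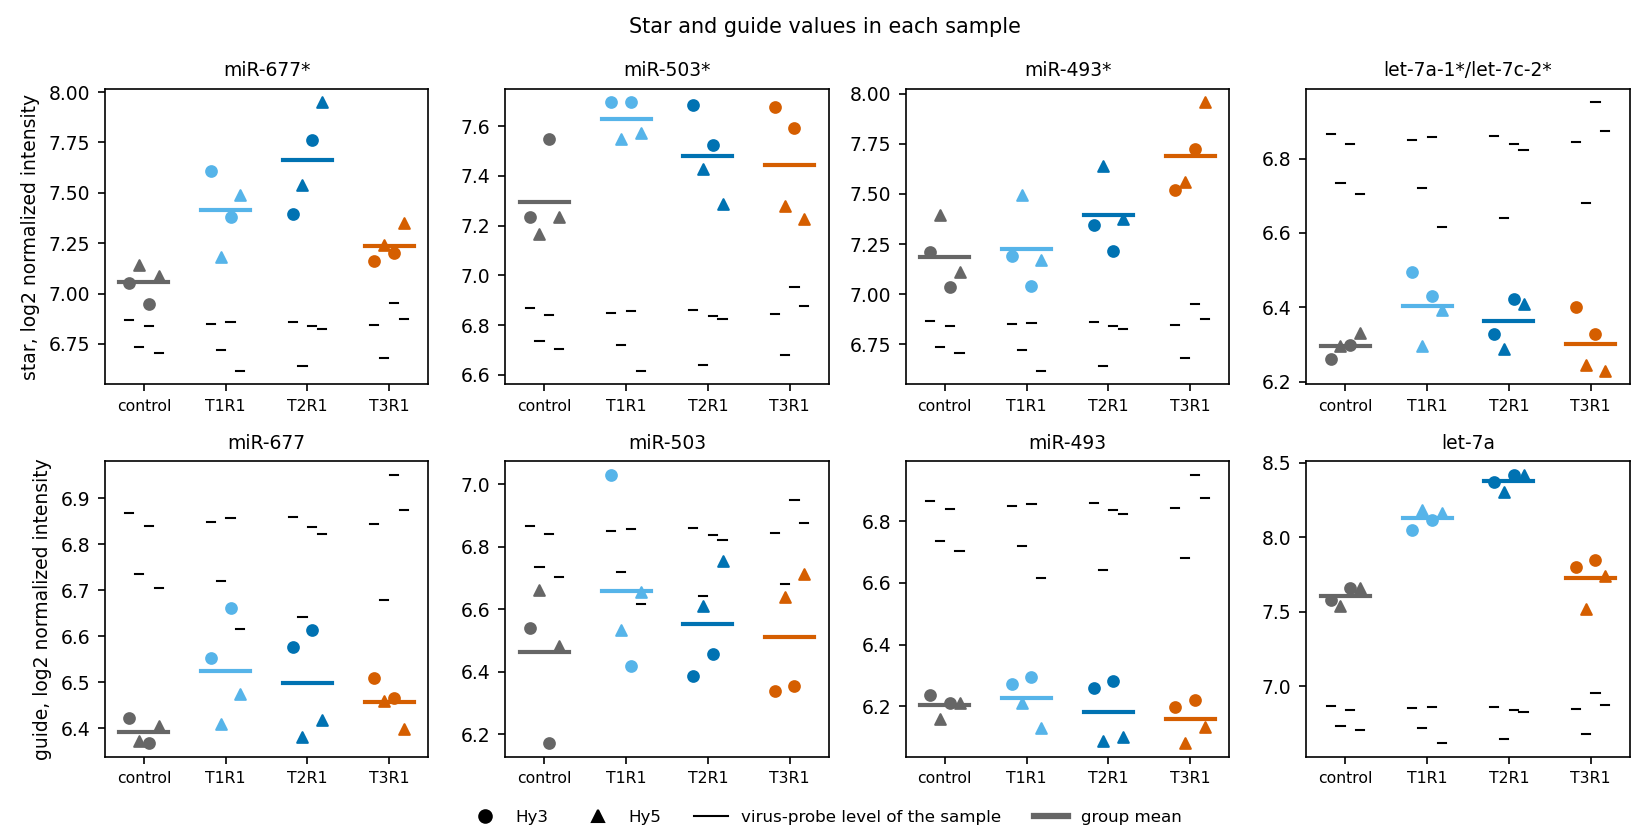
Log2 normalized intensity of 4 stars (top) and their guides (bottom) in each sample, with the group mean as a line and the sample's virus-probe level as a short black line; scales differ between panels. miR-677* is above the virus-probe level in every sample while miR-677 is below it in every sample, and let-7a shows the reverse against its star.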

How the data were processed

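The authors deposited the scanner output of 8 two-colour arrays, an intensity per spot and channel which per the file headers came from Agilent Feature Extraction 9.5.3.1, with other spot marks of 0 or 1. A deposited log2 value table served as an alternative, and the processing described for the series could not be matched exactly. With R 4.3.3 and limma 3.58.1, mean intensities were background-corrected (normexp, offset 50), loess was fitted within arrays with control spots at weight 0, control spots were dropped and average intensities equalised between arrays (Aquantile). Outlier spots were left out and a probe's 4 spots averaged. In all, 18 other treatments of control and unnamed spots were tried, with the resulting counts of calls in view, before this one was kept; all are given with the alternatives.

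The limma fit had group means, a dye term and the array as a random block (correlation 0.249 for probes, 0.348 for star-minus-guide pairs), with Benjamini-Hochberg adjustment over all mouse probes or all pairs and a threshold of 0.05. Replicates are separate hearts, but 2 share an array, and the number of arrays limits the precision. Same-numbered samples deviated together by -0.35 to 0.29, over 0.1 in 6 of 24 cases, so the numbers were not taken as pairs. Stars were named where called, among the 6 lowest p values (pairs: 4) of a comparison, above background in all 16 samples, or above it in at least 4 samples and in more samples than the guide; their guides follow. The strand behind each star came from the copy number for 43, from an arm in the array name for 14 and from the later renaming for 150. Members and lists were chosen with earlier results of these data known. The fit was also run on simulated data, with a correlation within arrays close to the 0.249 of all mouse probes. That does not cover detected probes, whose correlation was 0.627, and its outcome is not used here.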

Additional observations from a re-analysis of the deposited data

Results flagged for a closer look

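A sample stood apart from the other 3 of its group, by the gap over the range of the group, in 3 of 200 groups of 4 tested over 50 named stars, where chance flags about 1 in 20. For miR-300* the share was 0.928 in T1R1, with replicate 1 at 8.30 and the others from 7.40 to 7.47. For miR-140* it was 0.939 in control, with replicate 1 at 7.71 and the others from 7.88 to 7.89. For miR-1968* it was 0.845 in T3R1, with replicate 1 at 6.48 and the others from 6.55 to 6.56.

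Some stars lay on one side of the control mean in all 4 hearts of one exposed group and on the other side in all 4 of another. The differences between the exposed groups were not tested. For miR-138-2* T1R1 minus T3R1 was -0.28 and T2R1 minus T3R1 was -0.29. For miR-491* they were -0.46 and -0.32. For miR-433* T1R1 minus T3R1 was -0.30, and for miR-1a-1* T2R1 minus T3R1 was 0.15. T3R1 was on the other slide run in each case, so run and exposure cannot be told apart.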

How the results depend on the processing

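The scaling mattered most. Under median scaling of the channels 33 stars were called in T1R1 (30 higher, 3 lower), 32 in T2R1 (31 higher, 1 lower) and 3 in T3R1, and 67, 62 and 2 pairs, against 0, 1 and 0 stars and 3, 2 and 0 pairs in the analysis reported. Under that scaling the median difference of all mouse probes was 0.03 in T1R1, 0.02 in T2R1 and 0.01 in T3R1. With no step between arrays after loess the median of all mouse probes shifted by -0.59, -0.62 and -0.62. Then 211, 221 and 231 stars were called, all of them lower, and these star calls include that shift. The pairs called were 67, 62 and 2, the same as under median scaling, since a shift common to a sample cancels in star minus guide. The cause of the other differences was not tested. Counts here and in the next paragraph stand without the share of all mouse probes or all pairs called under the same setting. They therefore do not single out the stars.

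Stars called in T1R1 were 2 with processed signals and 2 with no array block. Stars called in T2R1 were 3 with processed signals, 2 with the deposited values, 4 with no array block and 3 with the replicate block, and 0 with normexp offset 0, with the within-array correlation of detected probes, with the samples of an array averaged, among probes above background in at least 4 samples, or with the samples of the 2 groups alone. Pairs called in T1R1 were 7 with no array block and 0 with offset 0, the deposited values, the higher array correlation, arrays averaged, the filter or the 2 groups alone. Pairs called in T2R1 were 8 with no array block, 1 with the higher array correlation and 0 with offset 0, processed signals, the deposited values or the filter. Pairs called in T3R1 were 1 with quantile normalization and 2 with no array block. Leaving out each sample in turn gave 0 to 2 stars in T1R1, 0 to 4 in T2R1 and 0 in T3R1, and 0 to 6 pairs in T1R1, 2 to 3 in T2R1 and 0 to 1 in T3R1. The replicate block, whose numbers do not pair the samples, changed no other count by over 1.5 times. T2R1 against T1R1 gave 0 stars and 0 pairs under each alternative run.

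The 18 treatments of control and unnamed spots, chosen after seeing the data, gave 6 to 10 called mouse probes in T1R1 and 7 to 11 in T2R1, against 7 and 9 as reported. They gave 1 star in T2R1 in each case, miR-677* (adjusted p 0.0221 to 0.0349). In T1R1 they gave 0 stars in all but 2 of them, in which miR-503* passed (1 star; adjusted p 0.0391 to 0.078 over the 18), and 0 to 3 pairs. miR-503* in T1R1 and miR-379* in T1R1 (passing in 4 of the 18) therefore lie at the threshold and depend on this choice. The miR-3067* and let-7a-1*/let-7c-2* pairs in T1R1 passed in 13 each, and both let-7a pairs in T2R1 in all 18.

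With the 99th percentile of the virus probes as the limit the difference in stars above background turned to -1.25 in T1R1 and -1.5 in T2R1; leaving out single samples gave 1 to 6.67, 1.67 to 4.67 and -3 to 2 stars. Directions of single strands turned as follows. With median scaling they were miR-138-2* at 0.49 in T1R1 and 0.44 in T2R1, miR-140* at 0.0455 in T3R1, and miR-15a* minus guide at -0.0501 in T3R1. With no step between arrays they were miR-3084* at -0.14 in T1R1, miR-301b* at -0.29, miR-665* at -0.10 and miR-18b* at -0.42 in T2R1, and miR-677* at -0.28, miR-138-2* at -0.18, miR-1968* at -0.49 and miR-15a* minus guide at -0.0501 in T3R1. Stars in none of the samples above background had a median within-group SD of 0.07, against 0.14 for stars above it in all 16, and values at background cannot show a change of a scarce strand.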
